A study of Papio anubis with 588 samples.

Results

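The genes described here encode 4 fatty acid binding proteins, FABP1, FABP3, FABP4 and FABP5. They are 4 of the 34178 genes in a table of RNA sequencing counts from olive baboons (Papio anubis, captive monkeys), and they were taken by their symbols. Each animal gave biopsies of liver, muscle and adipose tissue on 2 occasions. The HCHF group had eaten a diet high in cholesterol and fat for 2 years, and the LCLF group is the same animals at 0 years on a diet low in both. Of 99 animals, 84 had liver libraries at both times, 95 had muscle libraries and 95 had adipose libraries. No animal kept on the LCLF diet throughout was analysed here, so the HCHF diet cannot be told apart from 2 more years of age or from the date of sampling. Sex, age and the depot of the adipose tissue were not among the labels used here.

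Fatty acid binding proteins are small proteins of the cytosol that hold a long-chain fatty acid inside a barrel of beta strands, keep it soluble and carry it between membranes, lipid droplets, mitochondria, peroxisomes and the nucleus. Each form has its own home tissue. FABP1 is the liver form and also binds bile acids and haem, FABP3 is the heart and skeletal muscle form and brings fatty acids towards oxidation, FABP4 is the adipocyte form, also made by macrophages and capillary endothelium, and FABP5, first described in skin, is made in many cell types, among them macrophages and adipocytes. Several members hand ligands to peroxisome proliferator-activated receptors (PPARs), nuclear receptors that switch on genes of fatty acid use and storage, and FABP1, FABP3 and FABP4 are themselves among the targets of these receptors.

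After the authors' quality control, liver had 87 HCHF and 95 LCLF libraries, muscle had 98 HCHF and 96 LCLF libraries, and adipose tissue had 95 HCHF and 99 LCLF libraries. Total counts per library, in M (mega-counts), ran between 6.51 and 38.46 M with a median of 19.5 M. Levels are in CPM, the count of a gene per 1 M counts of its library, and are not corrected for gene length. They are therefore compared between tissues or diets for 1 gene. Where levels of different genes stand side by side, gene length is not allowed for. The libraries were made in a pair of batches with different kits, and 16 animals were assigned to batch 1 and 83 to batch 2 from their overall expression. A few libraries stood apart in their cell type markers. The HCHF liver library of animal 12152 had 4.96% of its counts on 10 hepatocyte genes, against medians of 20.95% in HCHF livers and 21.9% in LCLF livers. The HCHF liver libraries of animals 16017 and 16499 held 2252 and 1471 CPM on 10 adipocyte genes, against medians of 201.7 CPM in HCHF livers and 201.5 CPM in LCLF livers. The HCHF muscle libraries of animals 17190 and 17325 held 2.22% and 2.93% of their counts on the hepatocyte genes. Myocyte genes reached 2455 CPM in HCHF livers and 4505 CPM in LCLF livers, against medians of 20.6 and 20.8 CPM. In LCLF adipose tissue they reached 16660 CPM, against a median of 140.6 CPM. Keratinocyte genes reached 1917 CPM in LCLF livers, against a median of 14.5 CPM. How far such libraries set the levels of FABP3 and FABP5 in liver was not tested.

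Each member was highest in a tissue of its own or shared one with another member. On the LCLF diet FABP1 had a median of 263.3 CPM in liver, against 0.094 CPM in muscle and 0.055 CPM in adipose tissue, and 29.2% of LCLF muscle libraries and 38.4% of LCLF adipose libraries had no FABP1 count at all. FABP3 had a median of 68.6 CPM in LCLF muscle, 3.48 CPM in LCLF adipose tissue and 0.198 CPM in LCLF liver. FABP4 had a median of 5415 CPM in LCLF adipose tissue, 54.7 CPM in LCLF muscle and 0.704 CPM in LCLF liver. FABP5 followed the same order as FABP4, with 124.3 CPM in LCLF adipose tissue, 11.2 CPM in LCLF muscle and 0.318 CPM in LCLF liver. The order of tissues was the same on the HCHF diet for FABP3, FABP4 and FABP5.

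Every tissue contrast that could be tested passed edgeR's quasi-likelihood test within animals, in a comparison where 93.4% of genes passed for liver over muscle, 92.9% for liver over adipose tissue and 94.1% for adipose tissue over muscle, so passing by itself says little about the members. The sizes say more. Liver over muscle, the log2 fold change on the LCLF diet was -8.15 ± 0.23 for FABP3 (SE, 92 animals, adjusted p = 3.00e-56), -5.96 ± 0.22 for FABP4 (adjusted p = 1.54e-45) and -5.16 ± 0.15 for FABP5 (adjusted p = 1.08e-53). Liver over adipose tissue, it was -2.49 ± 0.19 for FABP3 (SE, 95 animals, adjusted p = 2.09e-23), -11.03 ± 0.26 for FABP4 and -7.13 ± 0.15 for FABP5. Adipose tissue over muscle, it was -5.83 ± 0.11 for FABP3, 4.97 ± 0.09 for FABP4 and 1.91 ± 0.11 for FABP5 (SE, 96 animals). FABP1 in liver exceeded its level in muscle by 10.78 ± 0.21 and in adipose tissue by 12.91 ± 0.17 on the log2 scale, fitted values that depend on the prior count because the other tissues had a median of 1 or 1.5 counts. FABP1 did not pass the count filter for adipose tissue over muscle, and its levels in those tissues lay near the limit that a count of 0 allows (0.165 CPM in adipose tissue and 0.159 CPM in muscle on the LCLF diet, 3 counts at the median depth), so no order is read from them.

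**Figure D1:**
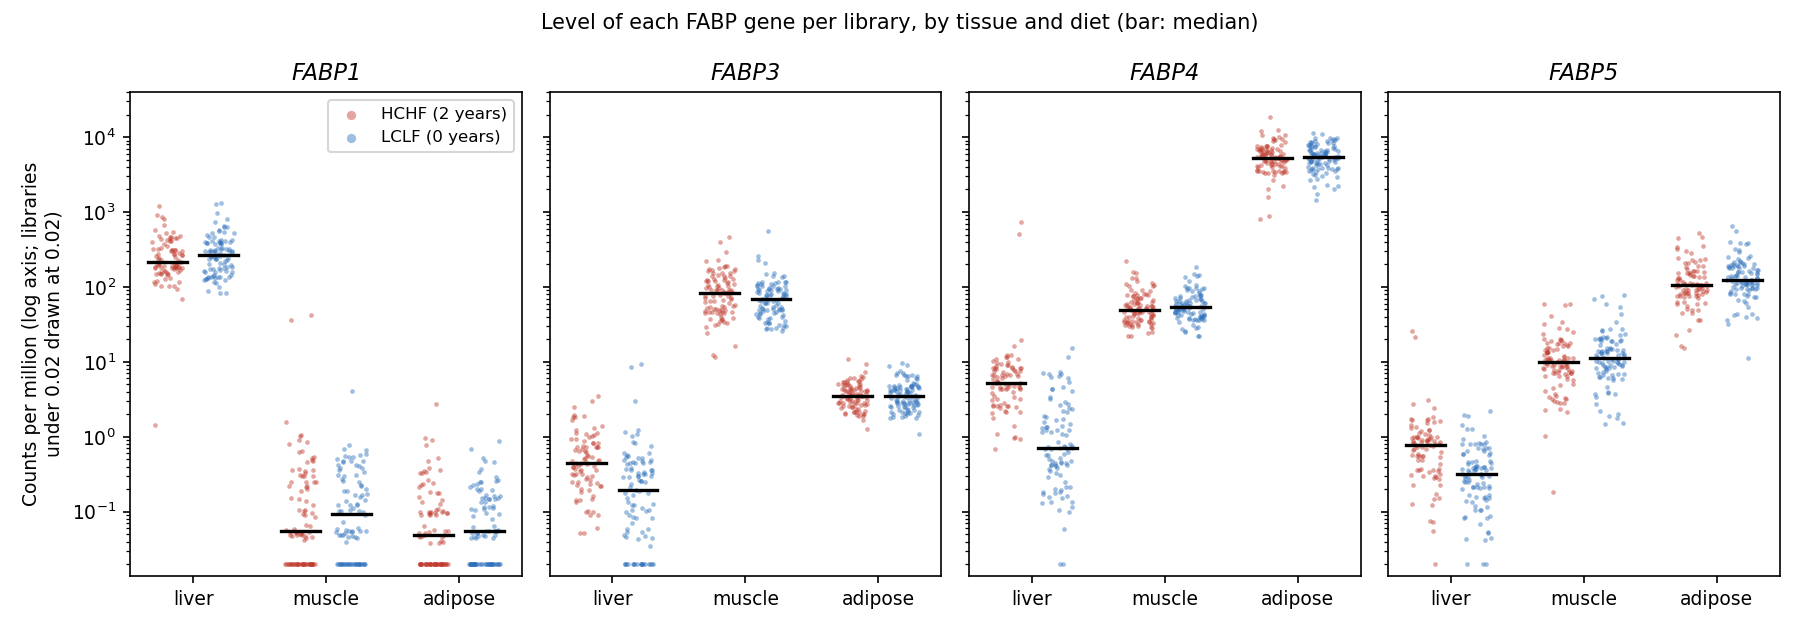
Level of FABP1, FABP3, FABP4 and FABP5 in each library (CPM, log axis, values under 0.02 drawn at 0.02), by tissue, with HCHF libraries to the left of LCLF libraries and a bar at each median. FABP1 is high only in liver, FABP3 is highest in muscle, FABP4 and FABP5 are highest in adipose tissue, and in liver the FABP4 median is 5.26 CPM on HCHF and 0.704 CPM on LCLF.

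In HCHF livers the members did not all move the same way. FABP4 and FABP5, both scarce in liver, rose. FABP1, the abundant form there, fell slightly, a call lost in 5 of 13 alternative fits. All 3 members tested in liver passed, where 49.4% of the 14919 genes tested passed in either direction, 22.3% higher and 27.1% lower. In muscle and adipose tissue FABP5 alone passed, with a small fall in each, among 3 members tested in each tissue, where 14.6% of 13621 genes passed in muscle (7.91% lower) and 38.5% of 16827 in adipose tissue (19.9% lower). The median log2 fold change of all genes was -0.03 in liver and within 0.01 of 0 in muscle and adipose tissue.

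**Figure D2:**
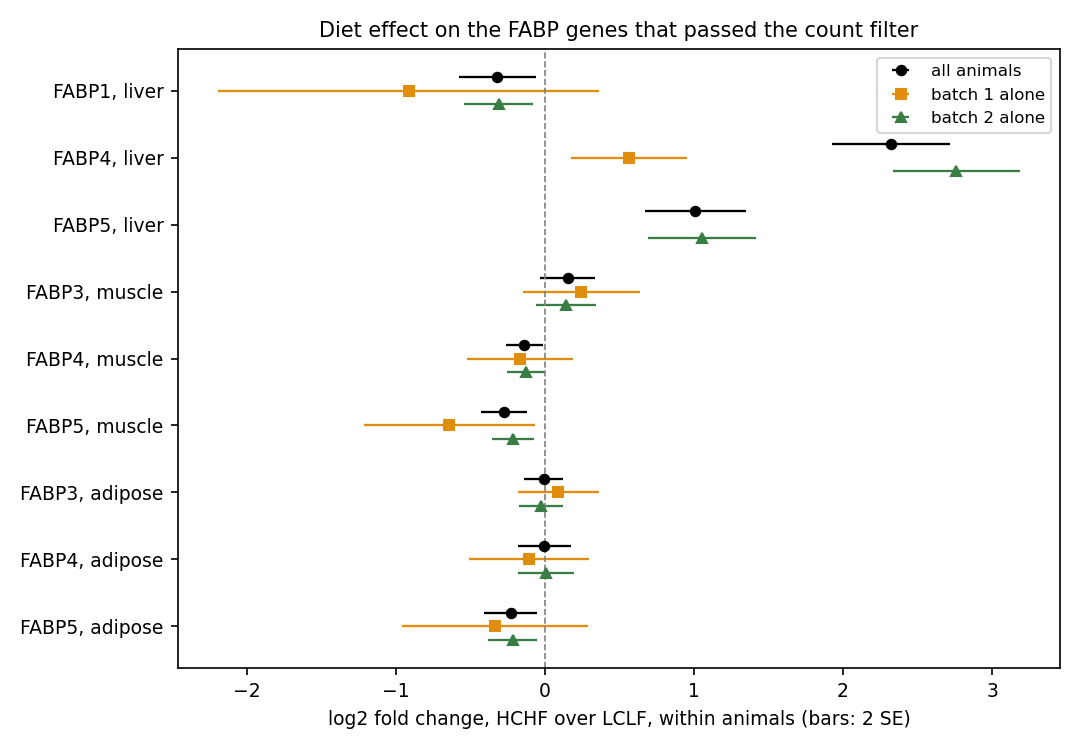
Log2 fold change of each member that passed the count filter, HCHF over LCLF within animals, in all animals (black circles), batch 1 alone (orange squares) and batch 2 alone (green triangles), with bars of 2 SE. FABP4 in liver lies at 2.32 in all animals, 0.56 in batch 1 and 2.76 in batch 2, while the farthest from 0 in muscle or adipose tissue is FABP5 in muscle of batch 1 at -0.64.

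FABP1 delivers fatty acids to oxidation and to PPARA in hepatocytes. Its liver level ran between 1.43 and 1215 CPM with a median of 216.8 CPM in 87 HCHF livers, against 83.0 to 1336 CPM with a median of 263.3 CPM in 95 LCLF livers. The diets overlapped almost entirely, and the lowest value was the HCHF library of animal 12152 named above, the next lowest being an HCHF liver at 69.4 CPM. FABP1 fell by 0.32 ± 0.13 on the log2 scale (SE, edgeR quasi-likelihood test, adjusted p = 0.0317, 84 animals), with a lower level on HCHF in 46 of 84 animals and a higher one in 38. The median within-animal change was -0.18 and changes ran between -7.64 and 1.66, so the direction was close to evenly split between animals. Without animal 12152 the value was -0.28 ± 0.11 (adjusted p = 0.0263), and without the 7 animals whose libraries departed from the markers of their own batch it was -0.24 ± 0.12 and no longer passed (adjusted p = 0.0732). Judged against all liver libraries, 12 animals departed, and without them it was -0.28 ± 0.12 and passed (adjusted p = 0.0457). Without the animal as a block it was -0.21 ± 0.14 (adjusted p = 0.237). Of the 10 hepatocyte genes, 0 rose and 6 fell in HCHF livers, with a median of -0.18, where 27.1% of all genes tested fell. Whether a smaller share of hepatocyte RNA accounts for the fall of FABP1 was not tested. In bulk tissue, fewer cells of a type and less RNA per cell cannot be told apart, here or in any result that follows.

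Outside the liver FABP1 was close to its detection limit. It exceeded 1 CPM in 6 of 194 muscle libraries and in 1 of 194 adipose libraries. The 2 highest muscle values were 42.7 and 36.8 CPM in the HCHF libraries of animals 17190 and 17325, the same 2 libraries that carried hepatocyte genes, and the next was 4.04 CPM in the LCLF muscle library of animal 17190, with 0.477% of counts on those genes. The fifth highest, at 1.06 CPM, had 0.00729% on them. The mean within-animal change was 0.05 ± 0.13 in muscle and 0.02 ± 0.10 in adipose tissue on the log2 scale (SE, 95 animals each, permutation of signs, adjusted p = 0.837 for each over 4 such tests). Without animals 17190 and 17325 the muscle value changed sign, at -0.06 ± 0.10 (93 animals, permutation of signs, unadjusted p = 0.539).

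FABP3 carries fatty acids in oxidative muscle. In muscle it ran between 11.5 and 462.4 CPM with a median of 82.2 CPM in 98 HCHF libraries, against 25.5 to 552.1 CPM with a median of 68.6 CPM in 96 LCLF libraries. The ranges of the diets overlapped over nearly their whole length. The difference was 0.15 ± 0.09 on the log2 scale and did not pass (edgeR quasi-likelihood test, adjusted p = 0.274), and the level was higher on HCHF in 54 of 95 animals. In adipose tissue FABP3 had a median of 3.53 CPM in HCHF libraries and 3.48 CPM in LCLF libraries, and the difference of -0.01 ± 0.07 did not pass (adjusted p = 0.941).

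In liver FABP3 was scarce and failed the count filter. Its level ran between 0.051 and 3.47 CPM with a median of 0.443 CPM in HCHF livers, against 0 to 9.46 CPM with a median of 0.198 CPM in LCLF livers. All 87 HCHF livers had at least 1 FABP3 count, while 18 of 95 LCLF livers had none. The median number of FABP3 counts was 10 per HCHF liver and 4 per LCLF liver. The mean within-animal change was 0.81 ± 0.15 on the log2 scale (SE, 84 animals), with a higher level on HCHF in 64 animals and a lower one in 20, and a permutation of signs gave the smallest p it could give, 1e-05 (adjusted p = 4e-05 over the same 4 tests). It was 0.30 in batch 1 and 0.91 in batch 2.

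FABP4, the carrier of adipocytes and of lipid-laden macrophages, showed the largest change of the family. Its level ran between 0.681 and 747 CPM with a median of 5.26 CPM in 87 HCHF livers, against 0 to 15.1 CPM with a median of 0.704 CPM in 95 LCLF livers. The upper end of the HCHF range was 2 libraries, those of animals 16017 and 16499 at 747 and 505 CPM, and the third highest was 19.7 CPM. FABP4 rose by 2.32 ± 0.20 on the log2 scale (SE, edgeR quasi-likelihood test, adjusted p = 1.34e-17), with a higher level on HCHF in 81 of 84 animals. Only 4 of the 14919 genes tested in liver had a larger log2 fold change. Without animals 16017 and 16499 it rose by 2.20 ± 0.17 (adjusted p = 4.24e-19), so the rise was about as large without them. Even on HCHF the median in liver was far under the median of 5278 CPM in HCHF adipose tissue.

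The batches differed in the FABP4 level of LCLF livers. In batch 1 the level ran between 6.34 and 19.7 CPM with a median of 9.63 CPM in 14 HCHF livers, against 2.93 to 15.1 CPM with a median of 6.17 CPM in 15 LCLF livers. In batch 2 it ran between 0.681 and 747 CPM with a median of 4.70 CPM in 73 HCHF livers, against 0 to 7.07 CPM with a median of 0.547 CPM in 80 LCLF livers. Diets overlapped in both batches, but all 73 HCHF livers of batch 2 lay above the LCLF median of their batch and 17 lay above its highest LCLF liver, as did all 14 and 2 HCHF livers of batch 1. The mean within-animal change was 0.66 ± 0.62 on the log2 scale (SD, 13 animals, 12 of them higher on HCHF) in batch 1 and 2.75 ± 1.73 (SD, 71 animals, 69 higher) in batch 2, a difference of -2.08 that a two-sided permutation test over animals placed at p = 9e-05. The median log2 changes were 0.76 in batch 1 and 2.55 in batch 2. On the scale of CPM differences the median gain was 4.65 CPM in batch 1 and 4.17 CPM in batch 2. The difference of medians was 0.48 CPM (two-sided permutation test, p = 0.638), which does not show that the gains were equal. The mean gains were 4.2 ± 4.2 CPM in batch 1 and 21.4 ± 105.5 CPM in batch 2 (SD). In edgeR's place, limma-voom on batch 1 alone gave 0.56 ± 0.19 (adjusted p = 0.089), and edgeR on batch 2 alone gave 2.76 ± 0.21 (adjusted p = 2.88e-18). Other genes differed between batches too. In LCLF livers ADIPOQ had medians of 0.562 CPM in batch 1 and 0.043 CPM in batch 2. CD68 had 9.90 and 4.41 CPM there, the summed myocyte genes 154 and 19.2 CPM, and PLIN1 10.5 and 11.2 CPM. In LCLF muscle the summed hepatocyte genes had medians of 152.1 CPM in batch 1 and 5.44 CPM in batch 2. Kit, strandedness, read layout and depth all changed between batches. The batches were also different animals, assigned by their overall expression, so technique and animals cannot be told apart here. The source of the difference in LCLF level was not tested.

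Of the 10 adipocyte genes 5 passed the filter in liver, 1 rose and 1 fell, where 49.4% of all genes tested rose or fell. ADIPOQ encodes adiponectin, a hormone made by adipocytes, and PLIN1 encodes the protein that coats their lipid droplets. ADIPOQ had a median of 0.052 CPM in HCHF livers and 0.053 CPM in LCLF livers, both about 1 count, and its mean within-animal change was 0.23 ± 0.19 on the log2 scale (SE, permutation of signs, adjusted p = 0.533). In batch 2, 33 of 73 HCHF livers had no ADIPOQ count and a median of 4.70 CPM of FABP4, and 39 of 80 LCLF livers had none and a median of 0.565 CPM of FABP4. With a median near 1 count, the absence of a count in a library says little about its ADIPOQ level. PLIN1 fell by 0.30 ± 0.09 (edgeR quasi-likelihood test, adjusted p = 0.00457), with medians of 9.28 CPM in HCHF livers and 11.1 CPM in LCLF livers. Without the animal as a block the PLIN1 value turned to 0.11 and did not pass (adjusted p = 0.599), and it did not pass by DESeq2 (-0.18, adjusted p = 0.201). Its mean, at 16.0 ± 38.1 CPM in HCHF livers and 12.49 ± 5.18 CPM in LCLF livers (SD, 84 animals), pointed the other way, with the HCHF livers of animals 16017 and 16499 at 251.8 and 262.9 CPM. The adipocyte gene that rose was ADIRF, at 0.20 ± 0.08 (adjusted p = 0.0239). The part of adipocyte RNA in the rise of FABP4 was not tested.

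Genes of several cell types rose in liver beside FABP4, among them those of macrophages, endothelium, T and NK cells and red blood cells. Of all genes tested in liver 22.3% rose. CD68, a lysosomal glycoprotein of macrophages, ran between 2.14 and 55.1 CPM with a median of 15.5 CPM in HCHF livers, against 0.645 to 29.5 CPM with a median of 4.93 CPM in LCLF livers, and rose by 1.49 ± 0.11 (edgeR quasi-likelihood test, adjusted p = 6.72e-21, higher in 78 of 84 animals). Of 13 macrophage genes 12 rose and 0 fell, with a median of 1.30, and GPNMB, a membrane glycoprotein of lipid-loaded macrophages, rose by 2.08 ± 0.13. All 11 endothelial genes rose, with a median of 0.71, among them KDR, the main receptor for vascular endothelial growth factor, at 0.69 ± 0.07. The summed level of the macrophage genes had a median of 1106 CPM (525.1 to 2114) in HCHF livers and 848.2 CPM (258.2 to 1453) in LCLF livers. Much of that sum was CD14, the gene of the 13 that did not pass, and without it the median was 443.3 CPM (135.6 to 1412) in HCHF livers and 157.4 CPM (38.1 to 674.4) in LCLF livers. That of the endothelial genes had a median of 202.9 CPM (114.2 to 461.3) in HCHF livers and 117.1 CPM (46.7 to 253.6) in LCLF livers. All 7 T and NK cell genes rose as well, with a median of 0.81, as did both erythroid genes tested, with a median of 1.11. The part of any of these cell types in the rise of FABP4 was not tested.

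**Figure D3:**
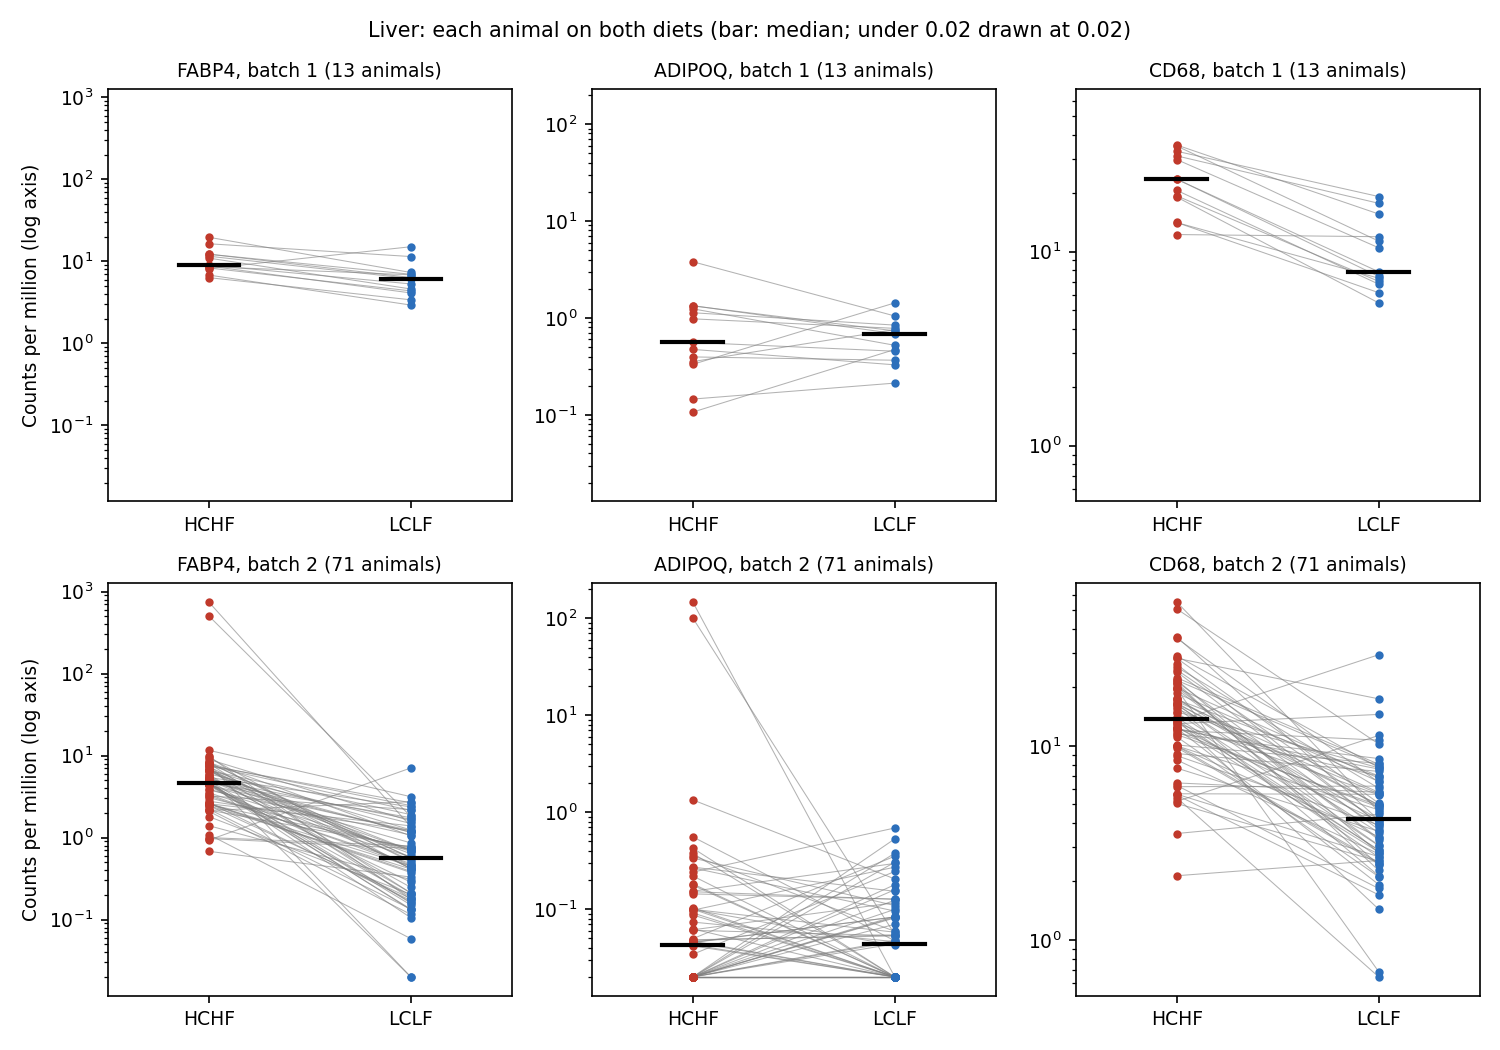
FABP4, ADIPOQ and CD68 in liver (CPM, log axis, values under 0.02 drawn at 0.02), 1 line per animal joining its HCHF library at left to its LCLF library at right, with batch 1 (13 animals) in the upper row, batch 2 (71 animals) in the lower row and bars at the medians. Most FABP4 and CD68 lines slope down towards LCLF, FABP4 starts from a higher LCLF level in batch 1, and ADIPOQ stays near 0 except in the 2 HCHF livers above 100 CPM.

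Across the 84 animals the change of FABP4 in liver was set against the changes of CD68, ADIPOQ, PLIN1 and 3 gene lists. With CD68 Pearson's r was 0.44 and Spearman's rho 0.44 (permutation, adjusted p = 0.00012 and 0.00018 over 6 relations), r was 0.41 without the 2 animals farthest from the median of CD68, 0.41 in batch 2, and 0.68 with a rho of 0.22 in the 13 animals of batch 1. With ADIPOQ r was 0.37 but rho was -0.01 (permutation, adjusted p = 0.0018 and 0.918), and r was -0.13 without the 2 farthest animals, so that relation rests on animals 16017 and 16499. With PLIN1 r was 0.40 and rho 0.16 (permutation, adjusted p = 0.000645 and 0.19), and r was 0.05 without the 2 farthest animals. For the mean log2 level of the macrophage genes r was 0.38 and rho 0.42 (permutation, adjusted p = 0.00054 and 0.00045), with r at 0.29 without the 2 farthest animals. For the endothelial genes r was 0.36 and rho 0.34 (permutation, adjusted p = 0.000924 and 0.00312), with r at 0.33. For the 5 adipocyte genes that passed the filter r was 0.50 and rho 0.23 (permutation, adjusted p = 0.00015 and 0.0567), with r at 0.16. Within batch 2 the same 3 gene lists gave r of 0.35, 0.33 and 0.48, and 0.21, 0.28 and 0.06 without the 2 farthest animals of each. These relations were not compared with each other by a test, and their precision differed. ADIPOQ had a median of 1 count per liver on each diet and the same level at both times in 19 of 84 animals. A rho near 0 for ADIPOQ therefore says little. CD68 had medians of 291 counts in HCHF livers and 96 counts in LCLF livers.

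**Figure D4:**
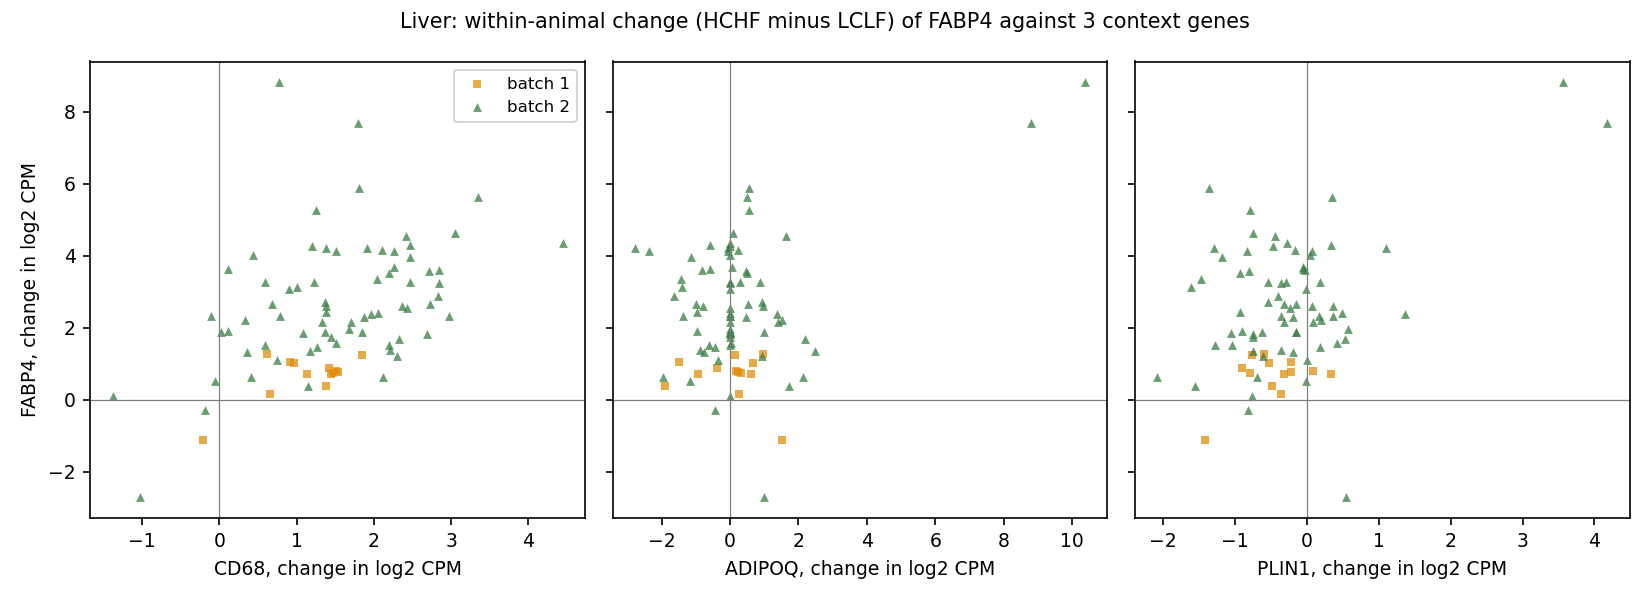
Within-animal change of FABP4 in liver (HCHF minus LCLF, log2 CPM) against the change of CD68, ADIPOQ and PLIN1, 1 point per animal, batch 1 as orange squares and batch 2 as green triangles. The points climb together for CD68 (r of 0.44 over 84 animals), while for ADIPOQ and PLIN1 the slope is set by 2 animals at the upper right.

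In its home tissue FABP4 did not move on average. Its level ran between 816.1 and 18497 CPM with a median of 5278 CPM in 95 HCHF adipose libraries, against 1459 to 11434 CPM with a median of 5415 CPM in 99 LCLF adipose libraries. The diets overlapped, with the widest values at both ends on HCHF, and 48 of 95 animals were higher on HCHF. The difference was -0.01 ± 0.09 (edgeR quasi-likelihood test, adjusted p = 0.967). In the same biopsies ADIPOQ fell by 0.25 ± 0.09 (adjusted p = 0.0222), a call lost without the animal as a block and by DESeq2 (adjusted p = 0.0913 and 0.0744). PLIN1 differed by 0.08 ± 0.11 and did not pass, and CD68 rose by 0.78 ± 0.13 (adjusted p = 5.93e-07). In muscle FABP4 ran between 22.0 and 223.2 CPM with a median of 49.6 CPM in HCHF libraries, against 22.1 to 183.1 CPM with a median of 54.7 CPM in LCLF libraries. The difference of -0.14 ± 0.06 did not pass (adjusted p = 0.111), with a lower level on HCHF in 55 of 95 animals. In those muscle biopsies 9 of 11 endothelial genes fell and 0 rose, with a median of -0.20, where 7.91% of all genes tested fell. DESeq2 called 3 of these 11. Of 10 macrophage genes tested there 5 rose and 0 fell, with a median of 0.37.

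FABP5 rose in liver and fell slightly in the other tissues. In human, FABP5 has processed copies elsewhere in the genome, and how reads shared between copies were counted is not stated in the labels, so its counts are less certain than those of the other members. In liver it ran between 0 and 25.5 CPM with a median of 0.778 CPM in HCHF livers, against 0 to 2.23 CPM with a median of 0.318 CPM in LCLF livers. The 2 highest HCHF values, 25.5 and 21.6 CPM, were again those of animals 16499 and 16017. FABP5 rose by 1.01 ± 0.17 (edgeR quasi-likelihood test, adjusted p = 5.01e-07, higher in 62 of 84 animals and lower in 21), and by 0.86 ± 0.15 without those 2 animals (adjusted p = 1.69e-06). Batch 2 alone gave 1.05 ± 0.18, and in batch 1 FABP5 was too scarce to test, at a median of 5 counts per HCHF liver and 3 per LCLF liver.

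In muscle FABP5 ran between 0.183 and 59.3 CPM with a median of 9.82 CPM in HCHF libraries, against 1.49 to 77.1 CPM with a median of 11.2 CPM in LCLF libraries. It fell by 0.27 ± 0.08 (edgeR quasi-likelihood test, adjusted p = 0.0107), with a lower level on HCHF in 57 of 95 animals and broad overlap of the diets. In adipose tissue it ran between 15.3 and 521.5 CPM with a median of 106.7 CPM in HCHF libraries, against 11.2 to 657.2 CPM with a median of 124.3 CPM in LCLF libraries. It fell by 0.23 ± 0.09 (adjusted p = 0.0288), with a lower level on HCHF in 63 of 95 animals. Both falls were small and depended on which animals entered. Without the 27 animals whose muscle libraries departed from the tissue's marker medians the muscle value was -0.17 ± 0.07 (adjusted p = 0.117). Without the 20 such animals in adipose tissue that value was -0.16 ± 0.09 (adjusted p = 0.167). Judged within batches, 11 animals departed in muscle, and without them the fall of 0.23 ± 0.08 passed (adjusted p = 0.0422). The 22 animals so judged in adipose tissue left a value of -0.15 ± 0.09, which did not pass (adjusted p = 0.219). Without the animal as a block the values were -0.29 ± 0.15 and -0.22 ± 0.13 and did not pass (adjusted p = 0.274 and 0.238). In adipose tissue the macrophage genes went the other way from FABP5, with 12 of 13 rising and 0 falling, while 6 of 11 endothelial genes fell and 0 rose. Of all genes tested there 38.5% passed, 19.9% lower. In muscle 9 of 11 endothelial and 4 of 9 myocyte genes fell beside FABP5 and 0 of either rose, where 7.91% of all genes tested fell. The other way went 5 of 10 macrophage and 4 of 5 T and NK cell genes, with 0 falling, where 912 of 13621 genes rose. DESeq2 called 3 of the endothelial, 3 of the myocyte, 7 of the macrophage and 3 of the T and NK cell genes. The part of these cell types in the falls of FABP5 was not tested. The level of FABP5 also differed between batches, with medians of 2.99 CPM in HCHF muscle and 4.27 CPM in LCLF muscle of batch 1, against 10.8 CPM in HCHF muscle and 13.2 CPM in LCLF muscle of batch 2.

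Set side by side within the same animals, the changes of FABP4 and FABP5 in liver differed from those in the other tissues. For FABP4 the liver change exceeded the muscle change by 2.55 ± 0.21 on the log2 scale (SE, limma on differences of within-animal changes, adjusted p = 4.00e-17, larger in liver in 76 of 80 animals) and the adipose change by 2.39 ± 0.20 (adjusted p = 5.18e-17, 76 of 82 animals). For FABP5 the excess was 1.23 ± 0.16 over muscle (adjusted p = 1.19e-09, 64 of 80 animals) and 1.07 ± 0.18 over adipose tissue (adjusted p = 5.32e-07, 61 of 82 animals). Without animals 16017 and 16499 the excess over muscle was 2.38 ± 0.18 for FABP4 and 1.14 ± 0.15 for FABP5, that over adipose tissue was 2.31 ± 0.19 and 1.03 ± 0.17, and all passed. The share of genes passing was 33.1% for liver minus muscle and 37.8% for liver minus adipose tissue. Between adipose tissue and muscle the changes of FABP3, FABP4 and FABP5 differed by -0.13 ± 0.12, 0.17 ± 0.10 and 0.13 ± 0.12, none of which passed, where 13.0% of genes did. The comparisons that share liver use the same liver libraries.

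Within a tissue, FABP4 and FABP5 changed together from animal to animal. The correlation of their within-animal changes was r = 0.40 and rho = 0.28 in liver (permutation, adjusted p = 0.00033 and 0.0338 over 9 pairs of members), r = 0.45 and rho = 0.54 in muscle (adjusted p = 9e-05 and 4.5e-05) and r = 0.49 and rho = 0.46 in adipose tissue (adjusted p = 9e-05 and 4.5e-05). Without the 2 animals farthest from the median it was 0.35, 0.62 and 0.53. Within batch 2 it was 0.45, 0.56 and 0.52, and 0.25, 0.50 and 0.49 without the 2 farthest animals of that batch. Within batch 1 it was 0.28, 0.29 and 0.45, where none passed, with a rho of 0.04 in liver. FABP3 and FABP4 in adipose tissue went in opposite directions weakly, with r = -0.23 and rho = -0.25 (permutation, adjusted p = 0.0573 and 0.0338). The remaining 5 pairs had r between -0.07 and 0.18 and did not pass.

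Levels at 0 and 2 years show how far an animal kept its rank. The correlation of the HCHF level with the LCLF level was r = 0.70 and rho = 0.66 for FABP5 in muscle within the 79 animals of batch 2 (permutation, p = 1e-05 for each, the smallest possible) and r = 0.56 and rho = 0.60 in adipose tissue, against r of 0.02 and 0.22 in the 16 animals of batch 1. FABP5 in liver gave r = 0.24 and rho = 0.19 in batch 2 (permutation, adjusted p = 0.0549 and 0.113) and r = 0.10 in batch 1. Pooled over batches, which differ in level, r of FABP5 was 0.73 in muscle and 0.61 in adipose tissue, and 0.76 and 0.55 without the 2 farthest animals. FABP3 in muscle gave r = 0.52 and rho = 0.47 in batch 2, r = 0.62 in batch 1 and r = 0.56 over all (permutation, adjusted p = 3e-05 over 9 relations). FABP4 in adipose tissue kept little rank, with r = 0.18 in batch 2, 0.44 in batch 1 and 0.23 over all (permutation, adjusted p = 0.027). FABP1 in liver gave r = 0.37 in batch 2, -0.07 in batch 1 and 0.24 over all (permutation, adjusted p = 0.027).

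**Figure D5:**
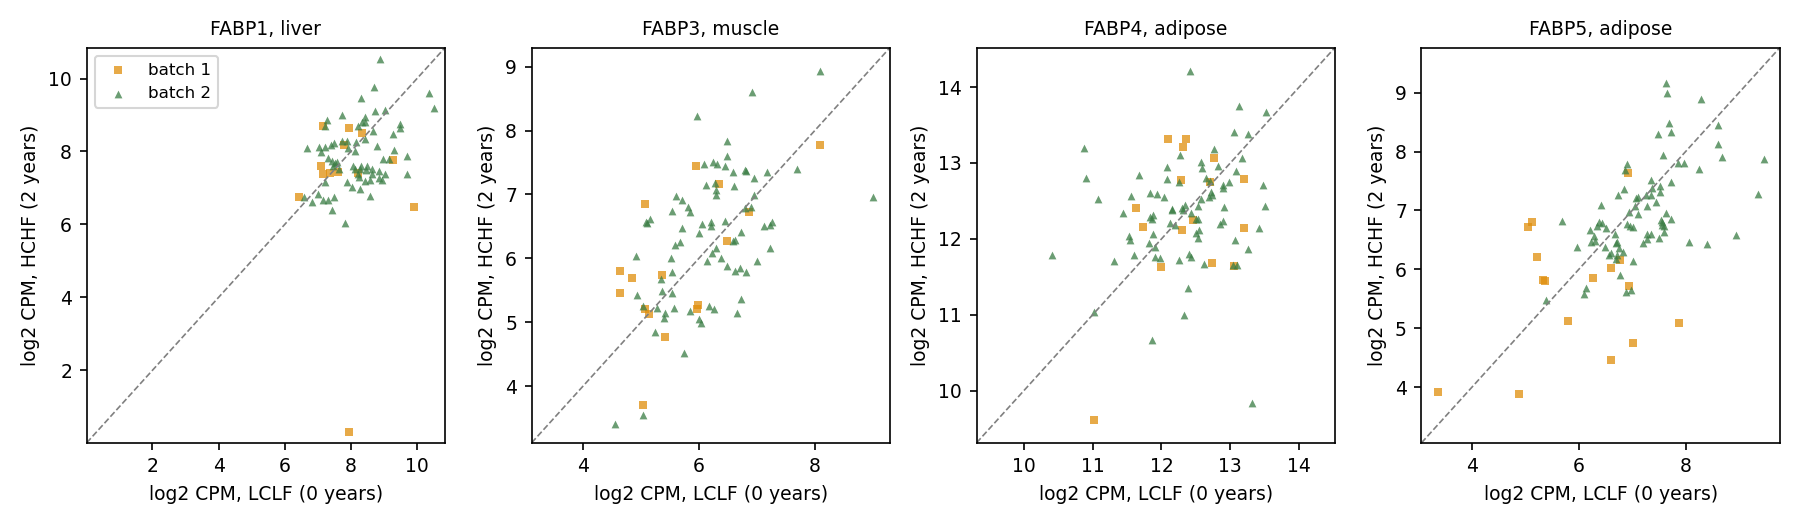
Level after 2 years on HCHF against level at 0 years on LCLF in the same animal (log2 CPM) for FABP1 in liver, FABP3 in muscle, FABP4 in adipose tissue and FABP5 in adipose tissue, batch 1 as orange squares and batch 2 as green triangles, with a dashed line of equal levels. Over all animals r is 0.24 for FABP1, 0.56 for FABP3, 0.23 for FABP4 and 0.61 for FABP5, the batches differ in the level of FABP5, and the lowest FABP1 point is the liver of animal 12152.

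The remaining intracellular lipid carriers of the same protein superfamily were followed as well, 12 genes in all. FABP2 and FABP6, the intestinal and ileal forms, FABP7, the brain form, FABP9, the testis form, FABP12, and PMP2, the form of peripheral myelin, failed the count filter in every tissue, and the highest mean was 0.361 CPM, for PMP2 in HCHF muscle. In the RefSeq gene order of baboon assembly Panubis1.0, FABP5, PMP2, FABP9, FABP4 and FABP12 follow each other on chromosome 8. FABP9 and FABP12, the neighbours of FABP4, averaged 0.145 and 0.139 CPM in HCHF adipose tissue and 0.210 and 0.176 CPM in LCLF adipose tissue. FABP4 averaged 5731 CPM in HCHF and 5684 CPM in LCLF adipose tissue of the same animals. The carriers of vitamin A did change. CRABP2, which carries retinoic acid to its nuclear receptor, rose in adipose tissue by 1.40 ± 0.18 (edgeR quasi-likelihood test, adjusted p = 1.76e-09, higher in 76 of 95 animals), with medians of 4.21 CPM in HCHF and 1.38 CPM in LCLF libraries. CRABP1, a retinoic acid carrier as well, rose there by 0.74 ± 0.17 (adjusted p = 0.000323). All 5 mesothelial genes tested in adipose tissue rose beside them, with a median of 0.44. So did 12 of 13 macrophage genes, with a median of 0.50, and all 3 erythroid genes tested, with a median of 0.95. The other way, 6 of 11 endothelial genes fell. Of 16827 genes tested there 3141 rose, and 38.5% passed in either direction. DESeq2 called 3 of the mesothelial, 9 of the macrophage, 3 of the erythroid and 5 of the endothelial genes. The part of any of these cell types in the rises of CRABP1 and CRABP2 was not tested. In liver RBP7, a retinol binding protein of adipose and endothelial cells, rose by 0.55 ± 0.14 (adjusted p = 0.000435), while RBP5, another retinol binding protein, fell by 0.20 ± 0.04. Without animals 16017 and 16499 RBP7 in liver was at 0.43 ± 0.12 (adjusted p = 0.00174). RBP7 in adipose tissue, at 148.2 ± 63.1 CPM on HCHF and 156.6 ± 67.4 CPM on LCLF (SD, 95 animals), did not pass (adjusted p = 0.303).

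Genes that bring fatty acids into cells and activate them moved in both directions in liver. Of 16 such genes 14 were tested, and 3 rose and 7 fell, with a median of -0.10, where 49.4% of all genes passed in liver. LPL, the lipase that frees fatty acids from circulating triglyceride, rose by 0.49 ± 0.11 (edgeR quasi-likelihood test, adjusted p = 0.000165) and CAV1, a coat protein of caveolae abundant in endothelium and adipocytes, by 0.55 ± 0.10 (adjusted p = 7.76e-06). LPL averaged 13.5 CPM in HCHF livers and 3.98 CPM in LCLF livers, and 5.59 ± 3.78 and 3.93 ± 2.29 CPM without animals 16017 and 16499 (SD, 82 animals), where it rose by 0.40 ± 0.08 (adjusted p = 2.39e-05). SLC27A3, a fatty acid transport protein, rose by 0.34 ± 0.09, and GOT2, a mitochondrial aminotransferase that also binds fatty acids at the cell surface, fell by 0.27 ± 0.04. In muscle 2 of 14 rose and 1 fell, where 14.6% of all genes passed. These were ACSL1, which couples fatty acids to coenzyme A, at 0.30 ± 0.06, DBI, which carries the resulting acyl-coenzyme A, at 0.28 ± 0.05, and CAV1 at -0.20 ± 0.05. In adipose tissue 2 of 14 rose and 5 fell, where 38.5% of all genes passed, and among the falls was that of SLC27A1, a fatty acid transport protein, at -0.30 ± 0.06 (adjusted p = 2.16e-05).

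The PPARs and the genes they are known to switch on were counted in the same way. In liver 2 of 9 receptor and partner genes rose and 3 fell, with PPARG at 0.25 ± 0.08 (adjusted p = 0.00372), NR1H3, the oxysterol receptor LXR alpha, at 0.16 ± 0.04, PPARA at -0.12 ± 0.05 (adjusted p = 0.0432) and the coactivator PPARGC1A at -0.53 ± 0.07. Of 13 PPAR target genes tested in liver 1 rose and 5 fell, with a median of -0.13, a share near the 49.4% of all genes that passed in liver. Among those that fell was EHHADH, a peroxisomal enzyme of fatty acid oxidation, by 0.25 ± 0.05. In muscle 0 of 8 receptor genes passed edgeR's quasi-likelihood test, 1 had an unadjusted p under 0.05, and limma-voom and DESeq2 called 0 each. Of 10 target genes tested in muscle 3 rose, led by CPT1B, which admits fatty acids to muscle mitochondria, at 0.42 ± 0.08 (adjusted p = 0.000105). Of all genes tested in muscle 14.6% passed. In adipose tissue 1 of 8 receptor genes rose and 2 fell, and 2 of 11 target genes rose and 1 fell, where 38.5% of all genes passed.

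The genes whose within-animal change was most like that of a member differed between members and tissues, ranked by Pearson's r after removal of batch means among genes with a mean of at least 1 CPM. For FABP4 in adipose tissue (95 animals) they were CD36, a fatty acid receptor and transporter, at r = 0.91, CCDC126 at 0.88, LIPE and PNPLA2, the lipases that release stored fat, at 0.88 and 0.87, and PHLDA3 at 0.87. None of these 5 rose, and PNPLA2 alone passed, with a fall of 0.21 ± 0.08. For FABP5 in the same biopsies they were genes of mitochondrial proteins, namely NDUFV2 and NDUFB8 of respiratory complex I at r = 0.81 and 0.80, MRPL40 of the mitochondrial ribosome at 0.80, and ATP5PO and ATP5PD of ATP synthase at 0.80 and 0.79. In liver (84 animals) they were GSN, an actin-severing protein, at 0.59, LGALS1, a galectin, at 0.58, GSTP1, a glutathione transferase, at 0.55, BOC at 0.55 and PLP2 at 0.54, all of which rose. FABP4 in liver was most like MMD at 0.62, OXCT1, which uses ketone bodies, at 0.55, ANXA5, a phospholipid binding protein, at 0.55, TTC7B at 0.54 and PTGER3, a prostaglandin E2 receptor, at 0.53, all of which rose too.

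FABP1 in liver was most like ABCB4, the phospholipid pump of the bile canaliculus, at r = 0.71, PEMT, which makes phosphatidylcholine, at 0.69, TUBA8 at 0.69, METTL7B at 0.69 and SLC25A20, the mitochondrial acylcarnitine carrier, at 0.67. Of these 5 genes PEMT, METTL7B and SLC25A20 fell, and none rose. FABP3 in muscle was most like LMCD1 at 0.77, MYL2, the regulatory myosin light chain of slow fibres and heart, at 0.75, MYL6B at 0.73, SLCO5A1 at 0.73 and TLR9 at 0.72. MYL6B and SLCO5A1 rose, by 0.32 ± 0.09 and 0.49 ± 0.11. These likenesses describe the same samples and carry no test.

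The 18 libraries that the authors' quality control left out entered no test apart from the alternative fit to all 588 libraries, and they are described here by how far these genes tell a library's tissue. The 13 left-out liver libraries had a median of 1.12 CPM of FABP1, with a highest value of 26.7 CPM, and medians of 139.1 CPM of FABP3 and 150.3 CPM of FABP4. Of the 3 left-out adipose libraries 2, those of animals 16017 and 17916 on HCHF, had 163.4 and 172.3 CPM of FABP1. They had 20.3% and 19.8% of their counts on hepatocyte genes. That of animal 16017 had 779.7 CPM of FABP4 and 20.8 CPM of FABP5, beside 747.3 and 21.6 CPM in its kept HCHF liver library. The left-out HCHF liver library of animal 17916 had 3380 CPM of FABP4 and 0.00894% of counts on hepatocyte genes. Whether tissues or labels of these 2 animals were mixed was not tested.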

How the data were processed

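Frozen biopsies of liver, muscle and adipose tissue were sequenced as 2 batches. In one, 16 animals had libraries from a kit without strand and 1 read per fragment, and in the other, 83 had libraries from a stranded kit and both ends read, per the labels' protocols. FastQC, STAR 2.7.7a and featureCounts are the tools listed per the submitters' processing notes, with no settings, build or strand option stated there. What the authors deposited are raw counts, whole numbers per gene, for 588 libraries and for the 570 that passed their quality control. The labels do not list the animals of each batch, so batches were taken from the largest gap (36.0, the next being 3.8) on principal axis 1 of mean expression per animal.

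Counts were analysed with R 4.3.3, edgeR 4.0.16, limma 3.58.1, DESeq2 1.42.0 and Python 3.11.15. Each tissue was fitted apart, on animals sampled at both times, with TMM scaling, filterByExpr (minimum count 10), a dispersion estimated on 500 genes and the animal as a block in edgeR's quasi-likelihood test, and p-values were adjusted over all genes tested by the Benjamini-Hochberg method at 0.05. Tissue levels on the LCLF diet were tested in the same way. Differences of change between tissues were tested by limma with a trend on changes of log2 CPM within animals (with a prior count of 2). Relations across animals and changes of genes under the filter were tested by 100000 permutations, two-sided. The labels pair the libraries by animal. As a check, the deviations of an animal's HCHF and LCLF libraries from their group means had a median correlation of 0.511 (liver), 0.478 (muscle) and 0.495 (adipose tissue), and it exceeded 0.1 for 84 of 84 livers, 90 of 95 muscles and 91 of 95 adipose samples. 0 pairs of libraries were identical. The tests across genes were tested on simulated data.

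The members, context genes, lists, naming rule and alternatives were chosen with earlier results of these data known. Named genes are the 4 members, ADIPOQ, PLIN1 and CD68, the 12 related carriers, up to 4 called genes of each list with a mean of at least 5 CPM, and the 5 genes most like each member. Some genes that this rule names are not reported here. KDR, GPNMB and ADIRF were named from the marker lists after their values were seen. Lists of fatty acid uptake, PPAR and PPAR target genes and of cell type markers are described by counts and medians without a list test. The listed genes SLC27A2, PLIN2, CYP4A11, MYH7, MSLN and HBA1 were not analysed here.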

Additional observations from a re-analysis of the deposited data

Results flagged for a closer look

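The change of FABP4 and FABP5 differed between liver and the other tissues by a test of the difference itself. For FABP4 liver exceeded muscle by 2.55 and adipose tissue by 2.39 on the log2 scale, and for FABP5 it exceeded muscle by 1.23 and adipose tissue by 1.07. In batch 2 alone these differences were 2.89, 2.71, 1.20 and 1.07, and all passed. Both genes were scarce in LCLF liver, at medians of 0.704 and 0.318 CPM, and abundant in LCLF adipose tissue, at 5415 and 124.3 CPM, and these are differences of log2 changes, not of CPM.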

How the results depend on the processing

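The tissue contrasts and the differences of change between tissues kept their direction and their side of the threshold under every alternative run for them, as did FABP5 and CD68 in liver (0.86 to 1.45 and 1.08 to 1.56 on the log2 scale), FABP3 in muscle (0.14 to 0.26) and FABP4 in muscle (-0.18 to -0.06). FABP4 in liver ran between 0.56 and 3.32 and missed the threshold in batch 1 alone (0.56). FABP1 in liver did not pass with no replicate block (-0.21, or -0.22 by DESeq2 with batch as a term), with all 588 libraries (-0.57), in batch 1 alone (-0.92) or without animals in doubt within their batch (-0.24). FABP5 in muscle did not pass with no replicate block (-0.29, or -0.33 by DESeq2), in batch 1 alone (-0.64) or without animals in doubt (-0.17). It passed without animals in doubt within their batch (-0.23). FABP5 in adipose tissue did not pass with no replicate block (-0.22, or -0.23 by DESeq2), in batch 1 alone (-0.34) or without animals in doubt by either rule (-0.16 and -0.15). The cause of these losses was not tested, beyond the fewer animals of batch 1.

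Some values changed sign. FABP3 in adipose tissue was 0.089 in batch 1 alone and 0.0048 and 0.016 without animals in doubt. FABP4 in adipose tissue was 0.019 with no replicate block and 0.019 by DESeq2, 0.0059 in batch 2 alone, and 0.0014 and 0.0077 without animals in doubt. PLIN1 in liver, a fall of 0.30 that passed, was 0.11 with no replicate block, and it did not pass by DESeq2 or with no filter (adjusted p = 0.201 and 0.108). PLIN1 in adipose tissue was -0.54 in batch 1 alone. ADIPOQ in adipose tissue did not pass with no replicate block, by DESeq2 or in batch 1 alone (adjusted p = 0.0913, 0.0744 and 0.603). FABP4 with ADIPOQ had r = -0.28 within batch 1 and -0.13 without the 2 farthest animals. The other relations of FABP4 did not pass within batch 1, at r = 0.68 with CD68, 0.45 with PLIN1, 0.53, 0.49 and 0.23 with the adipocyte, macrophage and endothelial scores, nor did PLIN1 (0.054) and the adipocyte score (0.16) without the 2 farthest animals.

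The count of genes called in liver, 7369, was 13847 with no filter and 934 in batch 1 alone. In muscle, 1989, it was 695 by DESeq2, 645 with no replicate block, 16 in batch 1 alone, 1060 in batch 2 alone and 757 without animals in doubt. In adipose tissue, 6484, it was 4076 by DESeq2, 10928 with no filter, 3635 with no replicate block and 1 in batch 1 alone. With no filter, limma-voom called FABP2 in liver, which had 2 counts in all liver libraries, so that fit was not used for scarce members. The judgement of animals in doubt within their batch, the values without named libraries or CD14 and the permutation of signs were chosen after the data were seen. Depth limits FABP1 outside liver, ADIPOQ in liver and FABP5 in livers of batch 1, all at a few counts per library.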
